A study of Mus musculus with 12 samples.

Results

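The replication-dependent histone genes were the 57 genes of the count table whose symbol starts with Hist and a digit, out of 14259 genes listed. By the class letter in the symbol they were 6 H1, 13 H2A, 16 H2B, 10 H3 and 12 H4 genes, and all 57 passed the filter on low counts. The libraries were bulk RNA of Treg cells sorted on day 14 from the bone marrow of lethally irradiated C57BL/6 mice, in 4 groups of 3. Of these, 3 groups had received MLL-AF9 leukemia cells, a mouse acute myeloid leukemia line that carries the mixed-lineage leukemia and AF9 fusion, together with conventional T cells of WT mice and Treg cells that were Tbet-/- (labelled Tbet-KO Treg), ST2-/- (ST2-KO Treg) or WT (WT Treg). The fourth group (No Tumor) had received WT conventional T cells and WT Treg cells without leukemia cells. In the study's scheme of this transfer model, irradiated mice were also given bone marrow cells depleted of T cells. Per the study's methods, WT and ST2-/- Treg cells came from Foxp3-eGFP reporter mice and were sorted as CD4+CD25+eGFP+, whereas Tbet-/- Treg cells were sorted as CD4+CD25+CD127-, so that genotype and gate cannot be told apart in the comparisons of the Tbet-KO Treg group. The leukemia cells carry eGFP as well. The sources used here do not say that the 3 libraries of a group came from separate animals, and p-values then measure only the spread between these libraries.

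Replication-dependent histone genes are transcribed mainly in S phase, when a cell must package newly made DNA. Core histones H2A, H2B, H3 and H4 form the nucleosome, and H1 binds the linker DNA between nucleosomes. Their mRNAs have no introns and no poly(A) tail. They end in a short stem-loop that is bound by the stem-loop binding protein SLBP, and they are degraded when DNA synthesis stops. In mice the genes sit in clusters, and many H2A and H2B genes lie head to head around a shared promoter region. In bone marrow the cells that carry much histone mRNA are cycling precursors and activated lymphocytes. These libraries were made from total RNA after removal of ribosomal RNA, without selection for poly(A).

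The stem-loop is shown because histone mRNA without a tail is defined by it. It was found in the annotated transcripts of 37 of the 57 members (GENCODE M21, GRCm38) in 7 spellings, of which the most common was held by 20 members of the H1, H2A, H2B and H3 classes. The search used 1 fixed pattern with a few variable positions, which limits the spellings. Some of the other members have short annotated transcripts, such as Hist1h2bn and Hist2h2bb with 381 bases each, which may stop before the stem-loop. A stem-loop not found is thus not one shown to be absent. In 11 of the 37 the annotated transcript ran on for more than 500 bases after the stem-loop. A stem-loop site with 5 bases on each side, in capitals for the 16 bases of the stem-loop, is given for an H2B and an H2A gene that share a promoter region and moved in opposite directions, for another H2B gene that rose in WT Treg libraries, for an H3 gene and for the H4 genes Hist1h4f and Hist1h4i.
Hist1h2bg: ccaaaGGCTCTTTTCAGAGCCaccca
Hist1h2ae: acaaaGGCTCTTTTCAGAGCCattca
Hist1h2bh: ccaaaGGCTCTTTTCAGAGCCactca
Hist1h3c: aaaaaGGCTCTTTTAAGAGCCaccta
Hist1h4f: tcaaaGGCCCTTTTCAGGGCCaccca
Hist1h4i: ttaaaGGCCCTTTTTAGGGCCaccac
The Hist1h2bg, Hist1h2ae and Hist1h2bh sites have the same 16 bases, whereas the spellings of Hist1h3c, Hist1h4f and Hist1h4i differ from these and from each other.

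The octamer is shown because it is the promoter motif known for H2B genes, where Oct-1 (Pou2f1) binds it. The letters ATTTGCAT were searched on both strands from 250 bases before to 50 bases after each RefSeq start site (GRCm38.p6). They were found in 6 of 13 H2A promoters and in 6 of the 13 H2B promoters that matched. A gene with several start sites was counted if any of its windows held the octamer. Hist1h2be was counted this way, since its window at chr13:23621045-23621344 has none. They were in none of the 6 H1, 8 H3 and 11 H4 promoters that matched, and in 1.97% of 27025 promoters of all genes. The H2B genes Hist1h2bc, Hist2h2be and Hist3h2bb-ps had no matched promoter and were not searched. Octamers of their head-to-head partners Hist1h2ac, Hist2h2ac and Hist3h2a lie within 250 bases before the annotated starts of these H2B genes. In 2 head-to-head pairs with both promoters matched, the H2A and the H2B gene have the very same octamer in their windows. The octamer, in capitals, with 40 bases on either side is given for the 3 H2B genes with an octamer that rose in WT Treg libraries.
Hist1h2bg: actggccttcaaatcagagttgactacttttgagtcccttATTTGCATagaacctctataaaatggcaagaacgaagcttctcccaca
Hist1h2be: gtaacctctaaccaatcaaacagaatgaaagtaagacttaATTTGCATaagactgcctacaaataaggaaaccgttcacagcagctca
Hist1h2bm: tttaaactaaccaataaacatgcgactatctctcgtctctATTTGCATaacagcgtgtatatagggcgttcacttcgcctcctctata
The octamer of Hist1h2bg lies at chr13:23571341-23571348 (position -59 from its start site) and is also that of its neighbour Hist1h2ae, which lies on the other strand (position -128). That of Hist1h2be lies at chr13:23586030-23586037 and that of Hist1h2bm at chr13:21722019-21722026. A match is a description and not a binding site.

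The libraries held 13272943 to 18042521 counts. Members took 0.6595 to 0.6743% of the counts in Tbet-KO Treg, 1.087 to 1.111% in ST2-KO Treg, 0.9118 to 0.9366% in WT Treg and 1.368 to 1.428% in No Tumor libraries, and no 2 groups overlapped. The ribosomal precursor Rn45s, left after removal of ribosomal RNA, took 4.72 to 5.20% of the counts in Tbet-KO Treg, 7.07 to 7.44% in ST2-KO Treg, 3.53 to 3.66% in WT Treg and 4.49 to 4.93% in No Tumor libraries. It was thus highest in ST2-KO Treg and lowest in WT Treg libraries, and its part in the results was not tested beyond leaving it out of the library sizes with other such genes, which changed the count of members called by at most 1 in each comparison. Il1rl1, which codes for ST2, had 86.6 to 92.7 CPM (counts scaled to library size by TMM, on the usual CPM scale) in ST2-KO Treg libraries and 124 to 136 CPM in WT Treg libraries. Tbx21, which codes for Tbet, had 13.8 to 16.1 CPM in Tbet-KO Treg libraries and 36.2 to 41.7 CPM in WT Treg libraries. Neither transcript was lost, and whether reads fall in a deleted part cannot be read from gene counts, so that these are called libraries labelled ST2-KO or Tbet-KO. In the column headers the ST2-KO and WT Treg columns also carry the same sequencing sample numbers, although their counts differ. The columns were assigned by the genotype and replicate in the header, and whether the repeated numbers are a slip of the headers was not tested. Transcripts of other cells were abundant. The summed level of 12 T cell markers was 1583 to 1617 CPM in Tbet-KO Treg, 763 to 789 CPM in ST2-KO Treg, 1495 to 1525 CPM in WT Treg and 585 to 611 CPM in No Tumor libraries, whereas 8 granulocyte markers summed to 10204 to 10782 CPM in ST2-KO Treg libraries, the lowest group, and to 16139 to 16430 CPM in WT Treg libraries, the highest. None of the listed T cell, Treg, B cell or granulocyte markers was at 0 in all libraries of a group. Fewer cells of a type and less RNA per cell cannot be told apart in bulk RNA.

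Summed over all 57 members, histone mRNA was highest in No Tumor libraries and lowest in Tbet-KO Treg libraries, with ST2-KO Treg above WT Treg libraries. The sums were 6555, 6446 and 6432 CPM in Tbet-KO Treg, 11294, 11057 and 11193 CPM in ST2-KO Treg, 9112, 8884 and 8960 CPM in WT Treg and 14112, 14620 and 14816 CPM in No Tumor libraries. The 4 groups did not overlap. Of single members, 52 of 57 had their highest group mean in No Tumor libraries and 55 of 57 their lowest in Tbet-KO Treg libraries. The share of all genes with these extremes is not given, so these counts have no background beside them. The 5 members that were highest elsewhere were all H2B genes: Hist1h2bg, Hist1h2be, Hist1h2bh and Hist1h2bm in WT Treg libraries and Hist2h2be in ST2-KO Treg libraries.

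The classes did not follow the same order. The H1, H2A, H3 and H4 sums ran No Tumor, ST2-KO Treg, WT Treg and Tbet-KO Treg from high to low, whereas the H2B sum of WT Treg libraries stood above that of ST2-KO Treg libraries. H2B genes summed to 1119, 1054 and 1069 CPM in Tbet-KO Treg, 1698, 1644 and 1635 CPM in ST2-KO Treg, 1991, 2022 and 1953 CPM in WT Treg and 2118, 2150 and 2119 CPM in No Tumor libraries. H4 genes, the class with the highest sum, had 2272, 2258 and 2199 CPM in Tbet-KO Treg, 3981, 3849 and 4001 CPM in ST2-KO Treg, 2826, 2694 and 2780 CPM in WT Treg and 5040, 5324 and 5369 CPM in No Tumor libraries. In both classes the 4 groups did not overlap. H2B genes took 16.7% ± 0.363 of all histone CPM in Tbet-KO Treg, 14.8% ± 0.217 in ST2-KO Treg, 22.1% ± 0.545 in WT Treg and 14.7% ± 0.353 in No Tumor libraries (SD, n = 3 each). The ratio of summed H2B to summed H2A was 3.11 to 3.15 in Tbet-KO Treg, 2.67 to 2.70 in ST2-KO Treg, 3.62 to 3.97 in WT Treg and 2.36 to 2.64 in No Tumor libraries. The WT Treg libraries were thus apart from the other groups in their H2B share. A ratio of sums within a library does not change with how libraries are scaled.

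**Figure D1:**
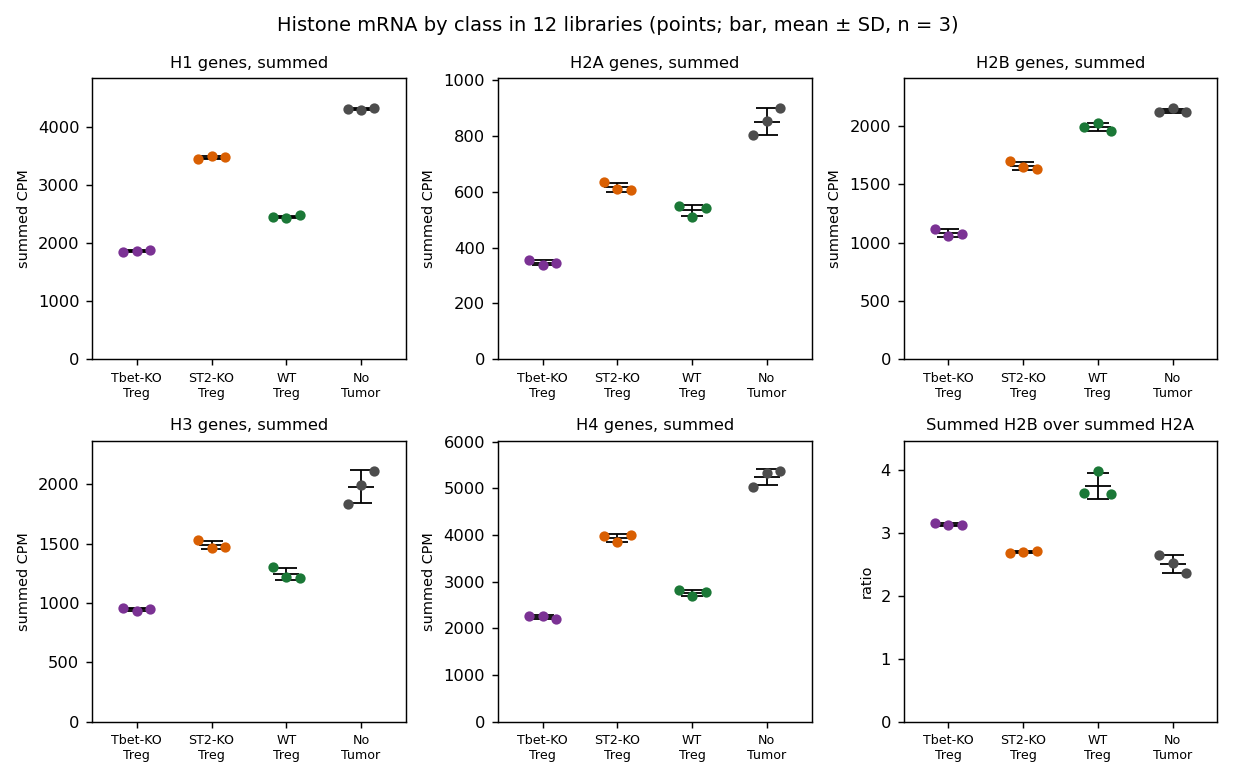
Summed CPM of the H1, H2A, H2B, H3 and H4 genes and the ratio of summed H2B to summed H2A (vertical axes, from 0) in the 4 groups (horizontal axes); points are libraries and bars the mean ± SD of 3. The H1, H2A, H3 and H4 panels run from No Tumor down through ST2-KO Treg and WT Treg to Tbet-KO Treg libraries, whereas in the H2B panel WT Treg libraries (1953 to 2022 CPM) lie above ST2-KO Treg libraries (1635 to 1698 CPM).

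Levels of different genes were compared per length, on the deposited FPKM scale. The highest mean levels over the 12 libraries were those of the H4 genes Hist1h4d at 2277 FPKM and Hist1h4f at 1988 FPKM. The somatic H1 genes lay between 487 FPKM (Hist1h1b) and 1052 FPKM (Hist1h1c). H2A genes lay between 17.3 FPKM (Hist1h2ad) and 289 FPKM (Hist1h2ak), H2B genes between 5.67 FPKM (Hist2h2be) and 735 FPKM (Hist1h2bn) and H3 genes between 64.2 FPKM (Hist1h3b) and 575 FPKM (Hist1h3e). Levels per length depend on the annotation: the GENCODE transcript of Hist2h2be has 2620 bases and that of Hist1h2bn 381. By mean CPM, Hist3h2bb-ps at 6.10 was below Hist2h2be at 14.7. Hist1h1t, which codes for the testis H1, was near 0 at 0.887 FPKM. Many H2A, H2B and H3 members share long stretches with other members, whereas H1 members hardly do. Over whole annotated transcripts, the median share of a member's 91-base windows that recur in another Hist gene was 0.52% in H1, 53.5% in H2A, 30.1% in H2B, 45% in H3 and 20.3% in H4. Reads of such windows can be lost or given to another member, so that values of single H2A, H2B and H3 genes are uncertain and class sums less so.

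The comparison of WT Treg with No Tumor libraries sets libraries of sorted WT Treg cells from marrow with leukemia against those from marrow without. Since transcripts of other cells were abundant, differences cannot be placed in Treg cells. The summed level was lower with leukemia in all 5 classes on the CPM scale, but least so in H2B, the class that stood apart. By edgeR's quasi-likelihood test at an adjusted p under 0.05, 48 of 57 members were lower and 4 were higher in WT Treg libraries, where 29.4% of all 13782 genes tested were lower and 29.0% higher. The median log2 fold change was -0.80 over H1, -0.70 over H2A, -0.69 over H3, -1.02 over H4 and -0.21 over H2B genes, against 0.00 over all genes. All 12 H4 and all 10 H3 genes fell, as did 12 of 13 H2A and 5 of 6 H1 genes, but of the 16 H2B genes 9 fell and 4 rose. With a log2 fold change beyond 1 as a further threshold, 7 members were lower and 0 higher. The share of all genes past this further threshold is not given, here or in the other comparisons, so these counts have no background beside them.

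Hist1h1a, an H1 subtype of proliferating cells, fell furthest of the called members. It had 320, 335 and 335 CPM in WT Treg libraries and 807, 782 and 792 CPM in No Tumor libraries, and the groups were far from overlapping (log2 fold change -1.27, SE 0.03, edgeR adjusted p = 6.9e-55). Hist4h4, an H4 gene that lies alone on chromosome 6 (chr6:136801553-136804415) and is also made as polyadenylated RNA, had 78.6, 79.1 and 74.2 CPM in WT Treg libraries and 160, 163 and 189 CPM in No Tumor libraries (log2 fold change -1.14, SE 0.06, edgeR adjusted p = 4.2e-32). Hist1h4a had 163, 159 and 185 CPM in WT Treg and 339, 373 and 365 CPM in No Tumor libraries (log2 fold change -1.09, SE 0.04, edgeR adjusted p = 8.6e-39). The strongest H4 transcripts moved with them: Hist1h4f at -1.06, Hist1h4h at -1.08 and Hist1h4d at -0.68. The other somatic H1 genes fell less than Hist1h1a, by 0.87 on the log2 scale for Hist1h1e, 0.72 for Hist1h1d, 0.69 for Hist1h1b and 0.63 for Hist1h1c. Among the most abundant H2A and H3 genes the log2 fold changes were -0.70 for Hist1h2ak, -0.81 for Hist1h2ab, -0.73 for Hist3h2a, -0.56 for Hist1h3e, -0.56 for Hist1h3f and -0.77 for Hist1h3c.

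The 4 H2B genes that rose did so by a similar amount. Hist1h2bg (chr13:23571396-23572013) had 224, 240 and 223 CPM in WT Treg libraries and 193, 194 and 197 CPM in No Tumor libraries (log2 fold change 0.24, SE 0.04, edgeR adjusted p = 1.3e-06). Hist1h2bh (chr13:23541714-23543392) had 139, 152 and 143 CPM in WT Treg libraries and 119, 115 and 114 CPM in No Tumor libraries (log2 fold change 0.32, SE 0.05, edgeR adjusted p = 6.3e-08). Hist1h2be had 172, 160 and 162 CPM in WT Treg libraries and 135, 134 and 135 CPM in No Tumor libraries (0.29 on the log2 scale). In each of these genes every WT Treg library was above every No Tumor library. Hist1h2bm (chr13:21722044-21722567) had 128, 125 and 117 CPM in WT Treg libraries and 109, 98.2 and 99.1 CPM in No Tumor libraries (0.27 on the log2 scale), also without overlap. All 4 have the most common spelling of the stem-loop, held by 20 members. Hist1h2be is annotated at chr13:23583670-23621124, a span that overlaps Hist1h1e on the same strand, so that reads of the overlap are uncertain for both genes. Of the other abundant H2B genes, Hist1h2bn had a log2 fold change of -0.18 and Hist2h2bb of -0.23, and both were called lower.

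**Figure D2:**
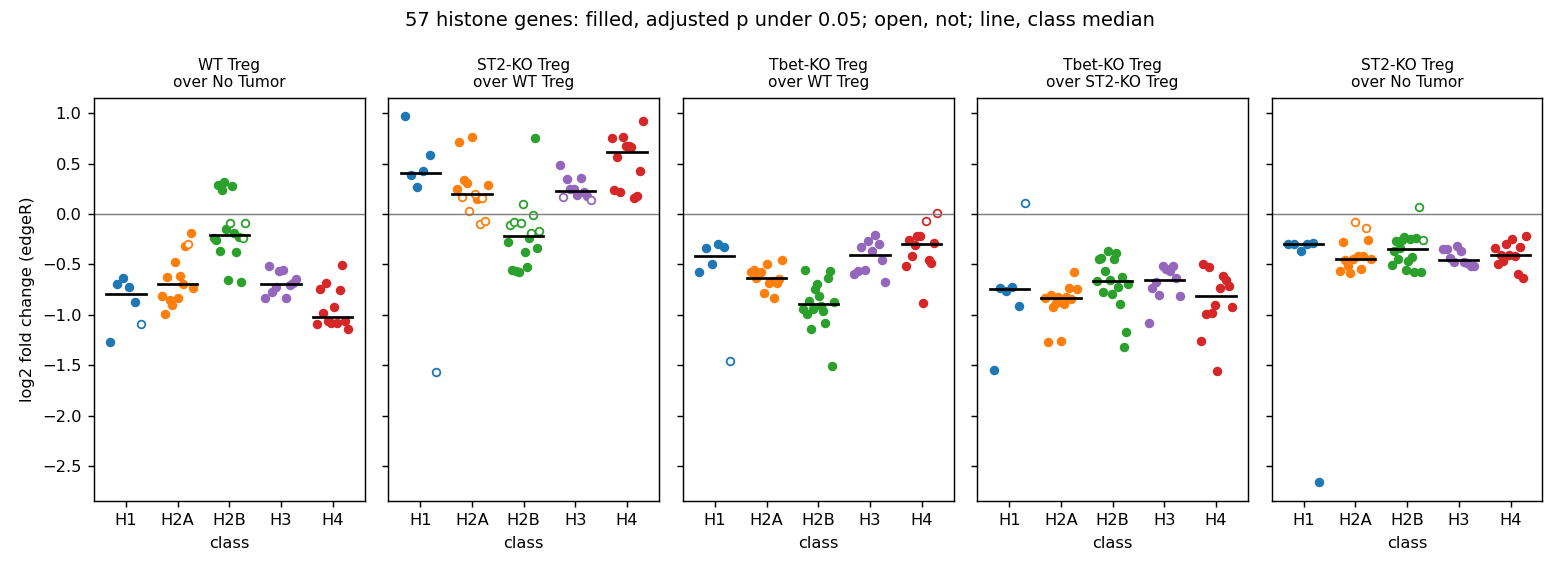
Log2 fold changes from edgeR (vertical axis) of the 57 members by class (horizontal axis) in the 5 comparisons; filled points had an adjusted p under 0.05, open points did not, and lines are class medians. H2B genes lie highest in WT Treg over No Tumor (median -0.21, 4 called higher) and lowest in Tbet-KO Treg over WT Treg (median -0.89); scaled to T cell genes, the 4 called higher lie below 0, and scaled to S phase genes, the median over H2B genes in the first panel is 0.15.

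The direction of the 4 H2B genes depended on the scale. When libraries were scaled to 12 T cell genes, which moved the median of all genes to -1.33, all 57 members were lower in WT Treg libraries. When they were scaled to 25 S phase genes, which moved that median to 0.36, 34 members were lower and 9 higher, all 9 of them H2B genes. The share of all genes called under these scales is not given, here or in the other comparisons. Counts under these scales are therefore not a result about the members. Relative to the shifted median of all genes the class medians were the same to 2 decimals or nearly so: -0.21 over H2B, -0.70 over H2A and -1.02 over H4 genes with either scale. A scale multiplies all genes of a library by the same factor, so that the order of the class medians could not change with it and these values are no further support for that order.

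The gap was also seen within head-to-head pairs. Their genes are among those behind the class medians, so that the pairs are not separate evidence for the class difference. There were 10 pairs of an H2A and an H2B gene on opposite strands with 172 to 301 bases between their annotated starts. In WT Treg against No Tumor libraries the H2B gene had the higher log2 fold change in 8 of 10 pairs, with a median difference of 0.42 (range -0.49 to 1.09). The widest gap was in the pair whose octamer is printed above: Hist1h2ae had 36.0, 30.4 and 33.9 CPM in WT Treg libraries and 57.2, 59.7 and 65.0 CPM in No Tumor libraries, while Hist1h2bg rose. Hist1h2ac had 25.7, 21.2 and 26.8 CPM in WT Treg libraries and 43.7, 49.8 and 53.4 CPM in No Tumor libraries, and its partner Hist1h2bc 70.1, 63.9 and 68.9 CPM in WT Treg and 81.6, 78.4 and 82.3 CPM in No Tumor libraries. The exceptions were Hist2h2be with Hist2h2ac on chromosome 3 and Hist1h2bp with Hist1h2an. In Hist2h2be with Hist2h2ac the order was turned round, with log2 fold changes of -0.67 and -0.19. The pair of Hist3h2a includes a pseudogene, Hist3h2bb-ps. With 3 against 3 libraries an exact permutation test on a pair's ratio cannot go below p = 0.1, and the difference within pairs was not tested.

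**Figure D3:**
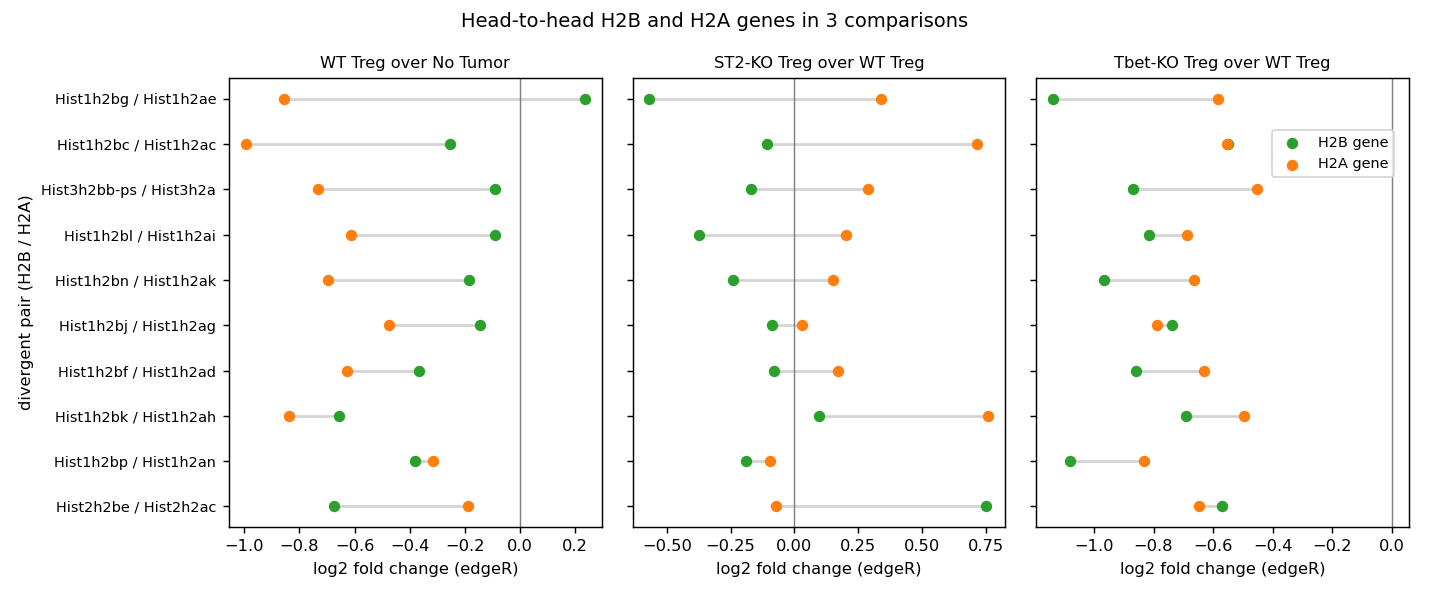
Log2 fold changes from edgeR (horizontal axes) of the H2B gene and the H2A gene of 10 head-to-head pairs (rows) in 3 comparisons. In WT Treg over No Tumor the H2B gene lies to the right in 8 of 10 pairs, and in ST2-KO Treg over WT Treg to the left in 9 of 10.

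Members with and without an octamer in the promoter were set side by side within a class. In WT Treg against No Tumor libraries the 6 H2B genes with the octamer had a median log2 fold change of 0.00 (range -0.65 to 0.29) and the 7 without it -0.18 (range -0.38 to 0.32). The 6 H2A genes with it had a median of -0.83 and the 7 without it of -0.61. The ranges of H2B genes with and without the octamer overlapped, and no test was made of the difference. Hist1h2bc, Hist2h2be and Hist3h2bb-ps had no matched promoter and were in neither set. Octamers of their head-to-head partners lie before their annotated starts, as given above. Their log2 fold changes were -0.255, -0.67 and -0.09, all below the median of the H2B genes with the octamer. Hist1h2be, the highest of the set with the octamer at 0.29, has a further start site whose window lacks the octamer. The order of the H2B medians thus depends on how Hist1h2be and the unmatched genes are placed.

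Libraries labelled ST2-KO were compared with WT Treg libraries, both from marrow with leukemia. Here too, differences cannot be placed in Treg cells. Histone genes were mostly higher in ST2-KO Treg libraries, again with H2B genes going the other way. Of 57 members 33 were higher and 8 lower, where 23.1% of all genes tested were higher and 22.8% lower. All 12 H4 genes rose, with a median log2 fold change of 0.62, as did 8 of 10 H3 (median 0.23), 7 of 13 H2A (0.20) and 5 of 6 H1 genes (0.41). Of 16 H2B genes 8 fell and 1, Hist2h2be, rose, with a median of -0.22, against 0.00 over all genes. No called member had a log2 fold change beyond 1.

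Hist1h1a had 631, 665 and 642 CPM in ST2-KO Treg libraries and 320, 335 and 335 CPM in WT Treg libraries, the largest rise (log2 fold change 0.97, SE 0.03, edgeR adjusted p = 6.3e-46). Hist4h4 had 163, 133 and 144 CPM in ST2-KO Treg libraries and 78.6, 79.1 and 74.2 CPM in WT Treg libraries (log2 fold change 0.92, SE 0.06, edgeR adjusted p = 1.3e-25). Hist1h4f had 820, 888 and 864 CPM in ST2-KO Treg and 515, 478 and 517 CPM in WT Treg libraries (log2 fold change 0.77, SE 0.03, edgeR adjusted p = 1.3e-39). In all 3 genes the groups were well apart. The 3 largest called falls were in H2B genes that had been high in WT Treg libraries. Hist1h2bh had 94.5, 96.2 and 99.6 CPM in ST2-KO Treg libraries and 139, 152 and 143 CPM in WT Treg libraries (log2 fold change -0.58, SE 0.05, edgeR adjusted p = 1.2e-16). Hist1h2bg had 166, 154 and 144 CPM in ST2-KO Treg and 224, 240 and 223 CPM in WT Treg libraries (log2 fold change -0.57), and Hist1h2be 118, 107 and 112 CPM in ST2-KO Treg and 172, 160 and 162 CPM in WT Treg libraries (-0.55). Both this comparison and that with No Tumor libraries use the same WT Treg libraries, so that the mirrored values are not separate evidence. Hist2h2be, the H2B gene that rose, had 20.9, 19.5 and 19.5 CPM in ST2-KO Treg and 11.54, 10.99 and 13.17 CPM in WT Treg libraries (log2 fold change 0.75, SE 0.14, edgeR adjusted p = 4.4e-06).

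The calls of this comparison depended on the scale. Scaled to S phase genes, with the median of all genes at -0.17, 19 members were higher and 15 lower. Scaled to T cell genes, with that median at 0.95, 56 were higher and 0 lower. In the head-to-head pairs the H2B gene had the lower log2 fold change in 9 of 10, with a median difference of -0.43, and Hist2h2be with Hist2h2ac was the exception at 0.82.

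Libraries labelled Tbet-KO were compared with WT Treg libraries. These groups differ in both Treg genotype and sorting gate, which cannot be told apart here. Histone mRNA was lower across all classes, and here H2B genes fell furthest. Of 57 members 54 were lower and 0 higher, where 20.6% of all genes tested were lower and 18.1% higher. DESeq2 also called 0 members higher, and at an unadjusted p under 0.05 the count was 0. The median log2 fold change was -0.89 over H2B, -0.63 over H2A, -0.42 over H1, -0.41 over H3 and -0.30 over H4 genes, against 0.01 over all genes, and all 16 H2B, 13 H2A and 10 H3 genes fell. The 3 members not called were Hist1h4j, Hist4h4 and Hist1h1t. Hist4h4 had 76.0, 77.8 and 79.2 CPM in Tbet-KO Treg libraries and 78.6, 79.1 and 74.2 CPM in WT Treg libraries, which overlapped.

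The H2B gene Hist1h2bg had 109, 101 and 103 CPM in Tbet-KO Treg libraries and 224, 240 and 223 CPM in WT Treg libraries (log2 fold change -1.14, SE 0.04, edgeR adjusted p = 7.3e-38). Hist3h2ba, an H2B gene of low level on chromosome 11, had 6.94, 5.84 and 5.02 CPM in Tbet-KO Treg libraries and 18.1, 17.7 and 14.9 CPM in WT Treg libraries (log2 fold change -1.51, SE 0.15, edgeR adjusted p = 2.2e-14). Hist1h2bp had 12.6, 10.2 and 17.6 CPM in Tbet-KO Treg libraries and 29.7, 29.0 and 25.9 CPM in WT Treg libraries (log2 fold change -1.08, SE 0.12, edgeR adjusted p = 1.2e-12). These 3 were the called members with a log2 fold change beyond 1, and their groups did not overlap. The most abundant H2B gene, Hist1h2bn, had 187, 185 and 184 CPM in Tbet-KO Treg and 351, 376 and 361 CPM in WT Treg libraries (-0.97 on the log2 scale). By comparison the most abundant H4 genes fell little, by 0.30 on the log2 scale for Hist1h4d, 0.22 for Hist1h4f and 0.22 for Hist1h4h, and the H1 gene Hist1h1a by 0.58. Scaled to S phase genes, 51 members were lower and 1 higher.

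Tbet-KO Treg libraries set against ST2-KO Treg libraries gave the largest median difference of histone genes between leukemic groups. Of 57 members 56 were lower in Tbet-KO Treg libraries and 0 higher, where 27.4% of all genes tested were lower and 26.4% higher. At an unadjusted p under 0.05 and by DESeq2 0 were higher as well. The 1 member not called was Hist1h1t. Class medians were close to each other at -0.75 over H1, -0.83 over H2A, -0.66 over H2B, -0.65 over H3 and -0.82 over H4 genes. Hist1h4i had 26.9, 25.7 and 24.0 CPM in Tbet-KO Treg libraries and 71.4, 75.5 and 78.9 CPM in ST2-KO Treg libraries (log2 fold change -1.56, SE 0.08, edgeR adjusted p = 1.9e-31). Hist1h1a had 221, 217 and 227 CPM in Tbet-KO Treg libraries and 631, 665 and 642 CPM in ST2-KO Treg libraries (log2 fold change -1.55, SE 0.03, edgeR adjusted p = 2.5e-60). Hist2h2be had 8.498, 9.558 and 5.802 CPM in Tbet-KO Treg and 20.9, 19.5 and 19.5 CPM in ST2-KO Treg libraries (log2 fold change -1.32, SE 0.15, edgeR adjusted p = 6.8e-13). None of these overlapped, and 8 members were lower by more than 1 on the log2 scale.

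ST2-KO Treg set against No Tumor libraries gave small and even falls. Of 57 members 53 were lower in ST2-KO Treg libraries and 0 higher, where 17.0% of all genes tested were lower and 15.0% higher. By DESeq2 and at an unadjusted p under 0.05, 0 members were higher too. Class medians lay between -0.45 over H3 and -0.30 over H1 genes, with -0.35 over H2B genes, and the median over all genes was -0.02. Hist2h4 had 293, 261 and 282 CPM in ST2-KO Treg libraries and 427, 441 and 430 CPM in No Tumor libraries (log2 fold change -0.63, SE 0.03, edgeR adjusted p = 9.7e-28). Hist1h4k had 240, 204 and 193 CPM in ST2-KO Treg libraries and 298, 318 and 345 CPM in No Tumor libraries (log2 fold change -0.59, SE 0.05, edgeR adjusted p = 1.2e-19). The testis gene Hist1h1t had 0.305, 0.230 and 0.00 CPM in ST2-KO Treg and 1.24, 1.51 and 0.723 CPM in No Tumor libraries, the only member past 1 on the log2 scale, at a handful of reads per library. The H2B share of histone CPM in these 2 groups differed by less than the range within each. Hist2h2be, with a log2 fold change of 0.07 (SE 0.14, edgeR adjusted p = 0.73), was the member with the highest value.

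**Figure D4:**
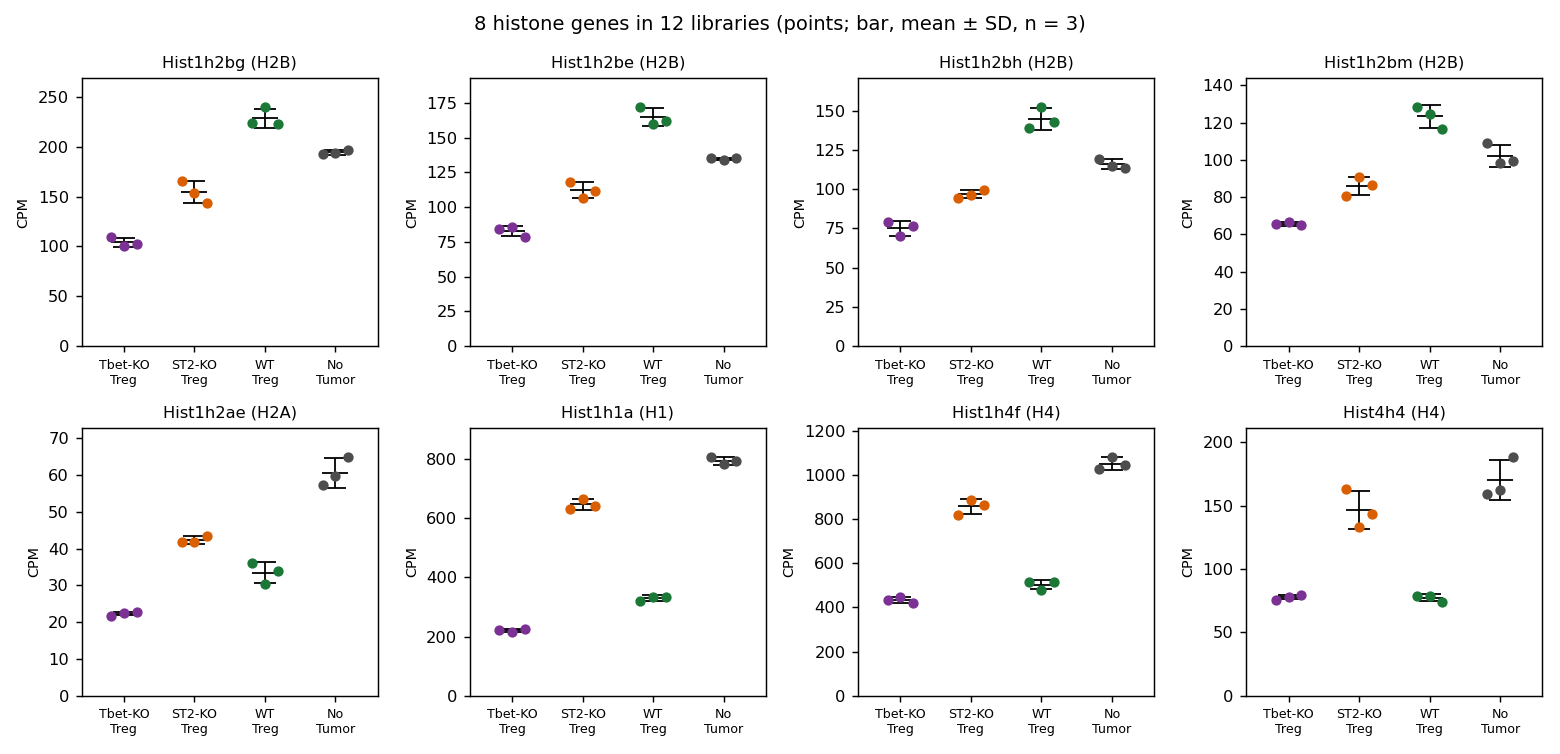
CPM (vertical axes, from 0) of 8 members in the 4 groups (horizontal axes); points are libraries and bars the mean ± SD of 3. The 4 H2B genes of the upper row are highest in WT Treg libraries (Hist1h2bg at 223 to 240 CPM; scaled to T cell genes, they are lower in WT Treg than in No Tumor libraries), whereas Hist1h2ae, Hist1h1a, Hist1h4f and Hist4h4 in the lower row are highest in No Tumor libraries.

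Place in the genome and transcript type were described as well. The members lie on chromosomes 13 (47 genes), 3 (6), 11 (3) and 6 (1). In WT Treg against No Tumor libraries the 29 members at chr13:23531050-23764406 had a median log2 fold change of -0.74, with 25 lower and 3 higher, the 13 members at chr13:21715763-21832196 had -0.61, with 11 lower and 1 higher, and the 5 members at chr13:22035164-22043676 had -0.65, with 5 lower. The 6 members on chromosome 3 had -0.47, with 5 lower, the 3 on chromosome 11 had -0.23, with 1 lower, and Hist4h4 on chromosome 6 is given above. The 7 members that are also made as polyadenylated RNA in differentiated cells had a median of -0.63, with 5 lower and 1 higher, and the 50 others of -0.69. Restricted to the 16 members with under 10% of their windows shared with another Hist gene, the median was -0.69 over all, -1.06 over the 3 H4 genes and -0.23 over the 5 H2B genes, of which 2 rose. H2B genes were thus above H4 genes also among members whose annotated transcripts share few windows. The shares are over whole annotated transcripts, and some of these run on past the stem-loop. In Hist1h2bh, 1 of the 2 that rose, 1214 of 1679 bases lie after the stem-loop. Reads of the mRNA up to the stem-loop can therefore be less unique than the share says.

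The medians over S phase genes had the same sign as those over the members and were smaller, and those over G2 and mitosis genes had the same sign as well. Of 25 S phase replication genes 20 were lower and 1 higher in WT Treg than in No Tumor libraries (median log2 fold change -0.30), 14 were higher and 4 lower in ST2-KO Treg than in WT Treg libraries (0.13), and 10 were lower and 0 higher in Tbet-KO Treg than in WT Treg libraries (-0.09). The S phase list summed to 2926 to 2975 CPM in Tbet-KO Treg, 3605 to 3695 CPM in ST2-KO Treg, 3213 to 3267 CPM in WT Treg and 4136 to 4180 CPM in No Tumor libraries, the same order as the histone sum. Histone CPM per S phase CPM was 2.17 to 2.22 in Tbet-KO Treg, 3.03 to 3.13 in ST2-KO Treg, 2.74 to 2.84 in WT Treg and 3.41 to 3.54 in No Tumor libraries, and the groups did not overlap. Uhrf1, which brings the maintenance DNA methyltransferase to newly made DNA, had log2 fold changes of -0.75 in WT Treg over No Tumor and -0.50 in Tbet-KO Treg over WT Treg libraries. Rrm2, a subunit of ribonucleotide reductase, had -0.55 and -0.29, whereas the helicase subunit Mcm6 had -0.15 and 0.08. Of 20 G2 and mitosis genes all 20 were lower in WT Treg than in No Tumor libraries (median -0.67), 15 were higher and 1 lower in ST2-KO Treg than in WT Treg libraries (0.30), and 13 were lower and 0 higher in Tbet-KO Treg than in WT Treg libraries (-0.18). The 1 that fell in ST2-KO Treg libraries was Plk1, a mitotic kinase named after its values were seen, with 63.0, 64.9 and 60.8 CPM in ST2-KO Treg and 73.3, 75.8 and 75.3 CPM in WT Treg libraries. Top2a had log2 fold changes of -0.77, 0.38 and -0.23 in these comparisons, and Mki67 of -0.38, -0.01 and -0.51.

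Genes that make and process histone mRNA had smaller medians than the members. Of 13 genes for histone mRNA synthesis and 3' end processing 10 were lower and 1 higher in WT Treg than in No Tumor libraries (median -0.21), 6 were higher and 1 lower in ST2-KO Treg than in WT Treg libraries (0.11), and 4 were lower and 2 higher in Tbet-KO Treg than in WT Treg libraries (-0.07). Slbp, whose product binds the stem-loops printed above, was singled out after its values were seen. It had 89.8, 91.6 and 93.8 CPM in Tbet-KO Treg, 131, 105 and 113 CPM in ST2-KO Treg, 93.8, 99.6 and 95.3 CPM in WT Treg and 144, 137 and 145 CPM in No Tumor libraries, so that it was high where histone mRNA was high, but did not pass the test between Tbet-KO Treg and WT Treg libraries (log2 fold change -0.07, edgeR adjusted p = 0.34). Of 18 histone chaperones 14 were lower in WT Treg than in No Tumor libraries (-0.29), 14 were higher and 3 lower in ST2-KO Treg than in WT Treg libraries (0.19), and 6 were lower and 5 higher in Tbet-KO Treg than in WT Treg libraries (-0.02). Of 11 histone genes that do not depend on replication, 7 were lower and 2 higher in WT Treg than in No Tumor libraries (-0.34), 7 were higher and 2 lower in ST2-KO Treg than in WT Treg libraries (0.30), and 5 were lower and 3 higher in Tbet-KO Treg than in WT Treg libraries (-0.19). H3f3b, which codes for the replacement histone H3.3, had log2 fold changes of -0.67, 0.50 and -0.19, and its paralog H3f3a 0.06, -0.19 and -0.71. H1f0, the linker histone of cells that have left the cycle, was also singled out after its values were seen. It had 83.5, 96.5 and 93.4 CPM in Tbet-KO Treg, 48.3, 44.8 and 38.5 CPM in ST2-KO Treg, 58.0, 59.8 and 56.9 CPM in WT Treg and 41.2, 39.9 and 38.8 CPM in No Tumor libraries, which is high where the replication-dependent H1 genes were low (log2 fold change 0.54 in WT Treg over No Tumor, edgeR adjusted p = 8.3e-10, and 0.65 in Tbet-KO Treg over WT Treg, edgeR adjusted p = 4.1e-13).

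Markers of other cells moved with the groups. The 8 B cell markers summed to 84.2 to 87.4 CPM in Tbet-KO Treg, 1822 to 1897 CPM in ST2-KO Treg, 745 to 760 CPM in WT Treg and 2584 to 2641 CPM in No Tumor libraries, the same order as the histone sum, and all 8 were lower in WT Treg than in No Tumor libraries. The 6 markers of precursor B cells summed to 30.1 to 31.7 CPM in Tbet-KO Treg, 1172 to 1207 CPM in ST2-KO Treg, 472 to 478 CPM in WT Treg and 1740 to 1779 CPM in No Tumor libraries. These markers do not show whether such cells were cycling. The 4 erythroid markers summed to 56.0 to 66.7 CPM in Tbet-KO Treg, 132 to 138 CPM in ST2-KO Treg, 323 to 330 CPM in WT Treg and 212 to 225 CPM in No Tumor libraries, and were thus highest in the libraries with the highest H2B share, as were the granulocyte markers given above and 6 monocyte and macrophage markers at 2141 to 2207 CPM in WT Treg and 1633 to 1651 CPM in No Tumor libraries. The 6 Treg markers were highest in the same libraries, at 1157 to 1160 CPM in Tbet-KO Treg, 1014 to 1020 CPM in ST2-KO Treg, 1358 to 1410 CPM in WT Treg and 646 to 654 CPM in No Tumor libraries. Tbet-KO Treg libraries, next in H2B share at 16.7%, had the lowest erythroid sum but the next highest granulocyte, monocyte and Treg sums. A link of these markers with the H2B share was not tested. The 6 leukemia and progenitor markers were lowest in No Tumor libraries at 62.3 to 66.2 CPM and highest in Tbet-KO Treg libraries at 317 to 335 CPM. Which cells carried the histone mRNA was not tested.

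**Figure D5:**
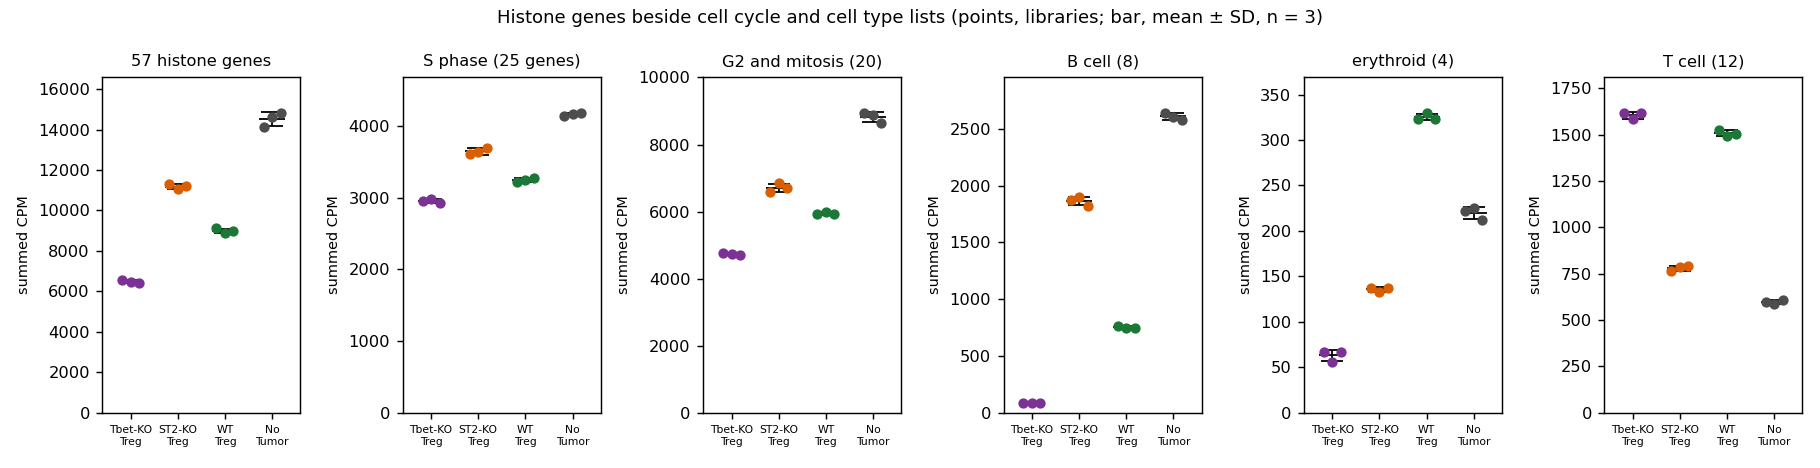
Summed CPM (vertical axes, from 0) of the 57 histone genes, of S phase and G2 and mitosis genes and of B cell, erythroid and T cell markers in the 4 groups (horizontal axes); points are libraries and bars the mean ± SD of 3. The histone, S phase, G2 and mitosis and B cell panels share 1 order of groups, with No Tumor libraries highest (14112 to 14816 CPM of histone genes) and Tbet-KO Treg libraries lowest (6432 to 6555 CPM), whereas the erythroid sum is highest in WT Treg libraries.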

How the data were processed

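Bulk RNA sequencing of sorted bone marrow Treg cells gave 12 libraries. Per the labels and methods, the authors used FastQC for read quality, STAR for alignment on mm10 and featureCounts for reads per gene. How reads in more than 1 place were counted and whether strand was used is not given in the sources used here. The deposited raw counts are whole numbers per gene. The deposited log2 FPKM values differ from log2 CPM (edgeR, prior count 2) by 1 gene-specific offset, to within 5.7e-14, and were used for levels per length.

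The test was edgeR's quasi-likelihood test (edgeR 4.0.16, R 4.3.3). Of 14259 genes, filterByExpr left 13782. After TMM scaling a single model held all 12 libraries, and p-values of each of 5 comparisons were adjusted by Benjamini-Hochberg across those genes. A gene was called at an adjusted p under 0.05. The SE beside a log2 fold change was derived from the test, as the size of the change over the square root of the F statistic. The biological coefficient of variation was 5.53%. Replicate pairs differed by more than sampling noise (chi-square per gene 2.27 to 4.98, where 1 is noise alone), so that no library was counted as a copy. Depth was 13272943 to 18042521 counts per library.

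Alternatives were DESeq2 1.42.0, limma 3.58.1 on log2 FPKM, other scalings and filters, fits of 2 groups, a replicate block and leaving out each library. Named members were the 3 with the highest mean CPM in each class, all H1 genes and, in each comparison, up to 3 called members with the largest change in each direction. Members of other lists were named from the 4 with the highest mean CPM. Slbp, H1f0 and Plk1 fall outside this rule. Hist1h2ae, Hist1h2ac, Hist1h2bc, Hist2h2ac, Hist1h2an and Hist3h2bb-ps were named as partners in head-to-head pairs, Hist1h4j as a member not called, and those at the ends of a class's range of levels. The members and the lists were chosen with earlier results of these data known. Coordinates are from GENCODE M21 and promoters from RefSeq, by gene symbol and its synonyms, both on GRCm38, the assembly that mm10 names.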

Additional observations from a re-analysis of the deposited data

How the results depend on the processing

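Under DESeq2, its scaling, other filters, limma on log2 FPKM, fits of only the groups compared and library sizes without ribosomal, mitochondrial and hemoglobin genes, the counts of members called stayed within 1.5 times those reported in all 5 comparisons. Replicate numbers did not pair the libraries (correlations of -0.0202 to 0.0212), and the replicate block left the counts at 4 higher and 48 lower in WT Treg over No Tumor, 33 and 8 in ST2-KO Treg over WT Treg, 0 and 54 in Tbet-KO Treg over WT Treg, 0 and 56 in Tbet-KO Treg over ST2-KO Treg and 0 and 53 in ST2-KO Treg over No Tumor. Leaving out each library in turn gave 4 to 4 higher and 47 to 49 lower, 29 to 33 higher and 7 to 9 lower, 0 to 0 higher and 52 to 54 lower, 0 to 0 higher and 55 to 56 lower, and 0 to 0 higher and 48 to 53 lower, in the same sequence of comparisons.

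A log2 fold change beyond 1 as a further threshold left 0 higher and 7 lower, 0 higher and 0 lower, 3 lower, 8 lower and 1 lower in the same sequence. Shares of all genes past that threshold are not given. Scaling to T cell genes gave 0 higher in WT Treg over No Tumor and 56 higher and 0 lower in ST2-KO Treg over WT Treg. Scaling to S phase genes gave 9 higher in WT Treg over No Tumor, 19 higher and 15 lower in ST2-KO Treg over WT Treg and 1 higher in Tbet-KO Treg over WT Treg. Shares of all genes called under these scales are not given. These scales moved the median of all genes in WT Treg over No Tumor, ST2-KO Treg over WT Treg, Tbet-KO Treg over WT Treg, Tbet-KO Treg over ST2-KO Treg and ST2-KO Treg over No Tumor to -1.33, 0.95, -0.08, -1.04 and -0.40 (T cell) and to 0.36, -0.17, 0.14, 0.31 and 0.17 (S phase).

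Alternatives were computed gene by gene for the 29 named members only, and other members, which also shift with the scale, are in the counts above. Of the named members, these turned direction, under the scales because a scale moves all genes alike. Scaled to T cell genes, WT Treg over No Tumor was -1.101 for Hist1h2bg, -1.02 for Hist1h2bh, -1.05 for Hist1h2be and -1.06 for Hist1h2bm on the log2 scale, ST2-KO Treg over WT Treg was 0.71 for Hist1h2bn, 0.95 for Hist2h2bb, 0.39 for Hist1h2bg, 0.37 for Hist1h2bh, 0.40 for Hist1h2be, 0.43 for Hist1h2bm, 0.62 for Hist3h2ba and 0.76 for Hist1h2bp, Tbet-KO Treg over WT Treg was -0.0828 for Hist4h4, Tbet-KO Treg over ST2-KO Treg -0.89 for Hist1h1t and ST2-KO Treg over No Tumor -0.31 for Hist2h2be. Scaled to S phase genes, WT Treg over No Tumor was 0.18 for Hist1h2bn, 0.13 for Hist2h2bb and 0.13 for Hist3h2ba, and ST2-KO Treg over WT Treg -0.0169 for Hist1h2ak and -0.0051 for Hist1h4k. Without a library, values near 0 turned: Hist2h2bb lay between -0.0324 (without ST2-KO Treg replicate 1) and 0.0245 (without ST2-KO Treg replicate 2) in ST2-KO Treg over WT Treg, Hist4h4 between -0.0219 (without WT Treg replicate 3) and 0.0211 (without Tbet-KO Treg replicate 1) in Tbet-KO Treg over WT Treg, and Hist1h1t between -0.46 (without ST2-KO Treg replicate 3) and 0.7217 (without ST2-KO Treg replicate 1) in Tbet-KO Treg over ST2-KO Treg. Hist1h1t rests on 0 to 25 counts a library.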
